A study of Arabidopsis thaliana with 8 samples.

Results

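The genes described here are 4 genes of the invertase group, *cwINV4* (AT2G36190), *cwINV6* (AT5G11920), *A/N-InvA* (AT1G56560) and AT1G62660, and 1 gene of the invertase and pectin methylesterase inhibitor family, AT3G17130. They were chosen by name as genes of sucrose cleavage and its inhibition, with earlier results of these data known. They are 5 of the 14120 loci that could be assigned a probe set on the array. RNA abundance was measured in floral nectaries of wild-type *Arabidopsis thaliana* (Col-0) on Affymetrix ATH1 arrays, on which a set of short oligonucleotide probes reports each transcript. The study compared immature lateral nectaries (ILN, n = 3 arrays), mature lateral nectaries (MLN, n = 3) and mature median nectaries (MMN, n = 2), each array carrying a separate pool of hand-collected nectaries from different plants. Flowers at stages 11 to 12, before nectar is secreted, gave the ILN, and open flowers at stages 14 to 15 gave the MLN and MMN. Of the 3 types, MLN are the ones that release nectar in quantity. All plants were 30 to 35 days old, were kept on 16 h of light and 8 h of dark, and were harvested 4 to 8 h after dawn. No group carried a mutation, a transgene or a treatment. Labelling started from 500 ng of RNA for MLN and ILN and from 250 ng for MMN, so that RNA input and nectary type cannot be told apart for MMN.

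Invertases split sucrose irreversibly into glucose and fructose. Cell wall invertases act outside the cell, vacuolar invertases inside the vacuole, and alkaline/neutral invertases in the cytosol, mitochondria or plastids. In nectaries, sucrose cleavage outside the cell adds to the solutes that draw water into nectar, and *cwINV4* is known as the cell wall invertase that Arabidopsis needs to produce nectar. Invertase inhibitors and pectin methylesterase inhibitors are small related proteins of 1 family, and the family name alone does not tell which enzyme a member binds.

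The signals used are linear, normalized hybridization intensities with a median of 100 on every array. Over the 8 arrays the lowest signal on an array was 8.30 to 9.65 and the highest was 14929 to 23365. A fold is a ratio of geometric means, a log2 difference comes from limma fitted to all 22746 probe sets, and a difference was called at a Benjamini-Hochberg adjusted p under 0.05. Levels are compared between nectary types for 1 gene at a time, since probe sets differ in how brightly they hybridize. Nectary tissue holds several cell types, and fewer cells of a type cannot be told apart from less RNA per cell in these pools. Of the markers of nectary tissue, 4 of 4 (*CRC*, *SWEET9*, *YAB5* and *JMT*) had a probe set, and all were bright on every array. Their summed signal was 45443 to 55495 in MLN, 27214 to 37665 in ILN and 36586 to 40482 in MMN. *JMT* alone of the 4 was called in any comparison. Without it the sums were 31266 to 36281 in MLN, 23388 to 32916 in ILN and 34654 to 35718 in MMN. MLN then overlapped both other types, while both MMN arrays were above every ILN array. Of 7 tapetum markers listed, 2 could be assigned a probe set. These, *A9* and *AMS*, were well below the array median on every array, with a summed signal of 42.6 to 59.4. None of 7 pollen markers and none of 6 phloem markers could be assigned a probe set, so pollen and phloem were not assessed.

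Of the 5 genes, AT3G17130 differed in all 3 comparisons, *A/N-InvA* in 1, and *cwINV4*, *cwINV6* and AT1G62660 in none. AT3G17130 rose 2.66-fold from ILN to MLN and was a further 15.3-fold higher in MMN than in MLN. Its ILN signals were low, and with 50 added to every signal these folds were 1.7 and 10.5. *A/N-InvA* was 1.71-fold higher in MMN than in ILN. *cwINV4* was very bright on every array and its highest and lowest arrays differed by 1.26-fold. Between MLN and ILN 1 of the 5 genes was called, against 23.6% of all probe sets, and between MMN and ILN 2 of the 5, against 18.8%. Between MMN and MLN 1 of the 5 was called, against 0.730% of all probe sets. That gene, AT3G17130, had been listed by the study from these arrays for this very difference. Its call was therefore fixed in advance, and the share is not a result about the 5 genes. Its call between MMN and ILN rests on the same MMN arrays and is not independent of that choice.

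**Figure D1:**
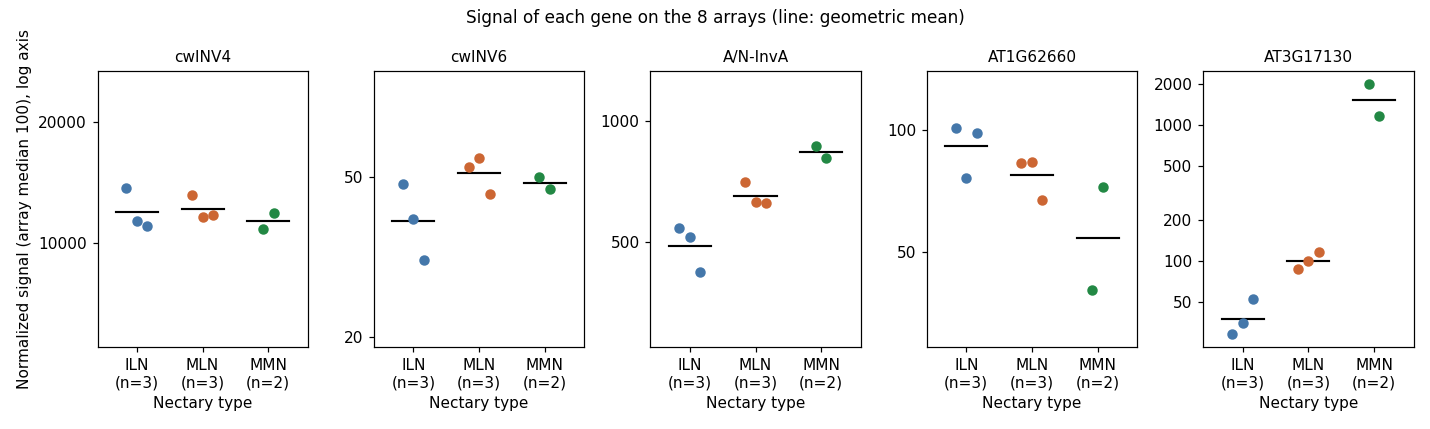
Normalized signal (log axis, array median 100) of each gene by nectary type. Each point is 1 array and each line a geometric mean; the axis range differs between panels. AT3G17130 runs from 28.9 to 2007 with the 3 types apart, while *cwINV4* stays between 10807 and 13661.

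*cwINV4*, the cell wall invertase of nectaries, gave signals of 13138, 11636 and 11761 in MLN, 13661, 11359 and 11041 in ILN, and 10807 and 11856 in MMN. The 3 types overlapped, with the first ILN and the first MLN array highest. On each array at least 99.8% of probe sets had a lower signal, and the study had listed the gene for its signal in these nectaries relative to other tissues, so its brightness is a description and not independent evidence. The mean was 12178 ± 833 in MLN (SD, n = 3), 12020.5 ± 1430.0 in ILN (SD, n = 3) and 11331 ± 742 in MMN (SD, n = 2). Over all 8 arrays the coefficient of variation was 8.37%.

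No difference in *cwINV4* between nectary types exceeded the spread between arrays. MLN and ILN differed by 0.02 on the log2 scale (SE 0.17, 95% interval -0.35 to 0.39, limma adjusted p = 0.925). For MMN against MLN the log2 difference was -0.10 (SE 0.19, interval -0.52 to 0.31, limma adjusted p = 0.963), and for MMN against ILN it was -0.08 (SE 0.19, interval -0.50 to 0.34, limma adjusted p = 0.816). These intervals bound the change at this number of arrays and do not show that the levels were equal.

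*cwINV6* is grouped by name with the cell wall invertases, and the reference annotation also calls it a 6-&1-fructan exohydrolase, an enzyme that trims fructose polymers. Its signals were 52.9, 55.6 and 45.3 in MLN, 48.1, 39.2 and 31.2 in ILN, and 50.0 and 46.5 in MMN. The ILN arrays reached lowest and overlapped both other types. The means were 51.3 ± 5.33 in MLN (SD, n = 3), 39.5 ± 8.47 in ILN (SD, n = 3) and 48.2 ± 2.45 in MMN (SD, n = 2). Every value lay below the array median, with 24.6% to 33.4% of probe sets lower, where background makes up more of a signal.

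The log2 difference of *cwINV6* was 0.39 for MLN against ILN (SE 0.20, interval -0.04 to 0.83, limma adjusted p = 0.167). It was -0.08 for MMN against MLN (SE 0.22, interval -0.57 to 0.40, limma adjusted p = 0.975) and 0.31 for MMN against ILN (SE 0.22, interval -0.17 to 0.80, limma adjusted p = 0.370). None was called by limma, and none passed 0.05 before adjustment either, in limma or in the equal-variance test that the study names, run here on linear signals. The ILN arrays decided the size of the MLN against ILN difference, which was 0.24 without the third (limma adjusted p = 0.475) and 0.55 without the first (0.0520).

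*A/N-InvA*, alkaline/neutral invertase A, belongs to the invertases that work inside the cell. Its signals were 707, 630.3 and 625 in MLN, 542, 516 and 423 in ILN, and 866 and 809 in MMN. The 3 types did not overlap: every ILN array was below every MLN array, and both MMN arrays were above all others. The means were 494 ± 62.3 in ILN (SD, n = 3), 654 ± 46.2 in MLN (SD, n = 3) and 837 ± 40.5 in MMN (SD, n = 2).

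Only the outer pair of this order was called. *A/N-InvA* was higher in MMN than in ILN by 0.77 on the log2 scale (SE 0.19, interval 0.34 to 1.20, limma adjusted p = 0.0172). The neighbouring steps did not pass, with 0.41 for MLN against ILN (SE 0.17, interval 0.03 to 0.79, limma adjusted p = 0.108) and 0.36 for MMN against MLN (SE 0.19, interval -0.07 to 0.78, limma adjusted p = 0.783). The call depended on single arrays: without the third ILN array the MMN against ILN difference was 0.66 (limma adjusted p = 0.0575), without the first MMN array 0.72 (0.137) and without the second 0.82 (0.101). Of all probe sets 18.8% were called in this comparison and 80.7% had a smaller difference in size.

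AT1G62660 carries no symbol in the annotation used here, and it was placed among the invertases by the choice of genes. Its signals were 83.2, 83.6 and 67.4 in MLN, 101, 76.3 and 98.3 in ILN, and 40.3 and 72.6 in MMN. The first MMN array was by far the lowest, and the second lay within the range of MLN but below every ILN array. The means were 78.1 ± 9.25 in MLN (SD, n = 3), 92.0 ± 13.7 in ILN (SD, n = 3) and 56.4 ± 22.8 in MMN (SD, n = 2).

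It was the only one of the 5 genes with a lower mean in MMN than in both other types by more than 0.5 on the log2 scale, and none of its differences was called. The log2 difference was -0.76 for MMN against ILN (SE 0.28, interval -1.36 to -0.15, limma adjusted p = 0.0800), -0.52 for MMN against MLN (SE 0.28, interval -1.13 to 0.08, limma adjusted p = 0.768) and -0.23 for MLN against ILN (SE 0.25, interval -0.77 to 0.31, limma adjusted p = 0.498). The 2 MMN arrays decided its size, since the MMN against ILN difference was -1.18 without the second (limma adjusted p = 0.0438) and -0.33 without the first (0.596).

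**Figure D2:**
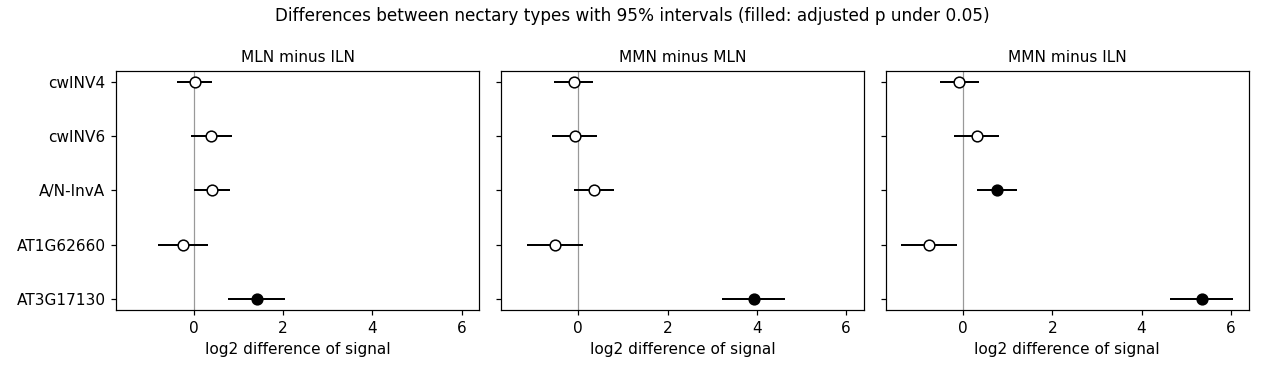
Log2 differences of signal between nectary types (x axis) for each gene (y axis), with 95% intervals from limma; filled points passed an adjusted p under 0.05. The 3 differences of AT3G17130 (1.41, 3.93 and 5.34) and that of *A/N-InvA* for MMN against ILN (0.77) are filled.

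AT3G17130, the inhibitor-family gene, changed most. Its signals were 28.9, 34.9 and 52.5 in ILN, 86.4, 98.8 and 116 in MLN, and 2007 and 1156 in MMN. The types did not overlap: the ILN arrays were well below the array median of 100, the MLN arrays around it, and both MMN arrays far above the highest MLN array. The means were 38.8 ± 12.3 in ILN (SD, n = 3), 100.5 ± 15.0 in MLN (SD, n = 3) and 1582 ± 602 in MMN (SD, n = 2). The highest and lowest of the 8 arrays differed by 69.4-fold, against 1.74-fold between both MMN arrays, 1.35-fold within MLN and 1.82-fold within ILN.

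From ILN to MLN AT3G17130 rose by 1.41 on the log2 scale (SE 0.28, interval 0.80 to 2.02, limma adjusted p = 0.00383). It was higher in MMN than in MLN by 3.93 (SE 0.31, interval 3.25 to 4.62, limma adjusted p = 1.40e-04), a fold of 15.3 with an interval of 9.52 to 24.5. In MMN against ILN the difference was 5.34 (SE 0.31, interval 4.66 to 6.02, limma adjusted p = 1.97e-06), a fold of 40.6 with an interval of 25.3 to 65.1. Ordered from the highest rise among 22746 probe sets, it was number 7 in MMN against MLN, number 15 in MMN against ILN and number 613 in MLN against ILN. The study had picked this gene from these arrays for its difference between MMN and MLN, so its size in that comparison is not independent evidence. The comparison of MMN with ILN uses the same MMN arrays, so its size and place there are not independent of that choice either.

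Leaving out any 1 array kept AT3G17130 called in each comparison, with folds of 2.33 to 3.14 for MLN against ILN, 11.6 to 20.1 for MMN against MLN and 30.8 to 53.5 for MMN against ILN. The ILN signals lay where only 17.8% to 38.0% of probe sets were lower, and background in them makes the folds against ILN uncertain beyond their intervals. With 50 added to every signal before taking log2, all 3 differences were still called, at 0.77, 3.39 and 4.16, or folds of 1.7, 10.5 and 17.9. In the equal-variance test on linear signals the 3 differences passed 0.05 before adjustment and none after Benjamini-Hochberg adjustment over all probe sets. The study used another false discovery rate with its test, that of Storey and Tibshirani. By it the study listed AT3G17130 between MMN and MLN at a cutoff of 0.05, and that method was not run here. The call of *A/N-InvA* was lost in the same way.

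**Figure D3:**
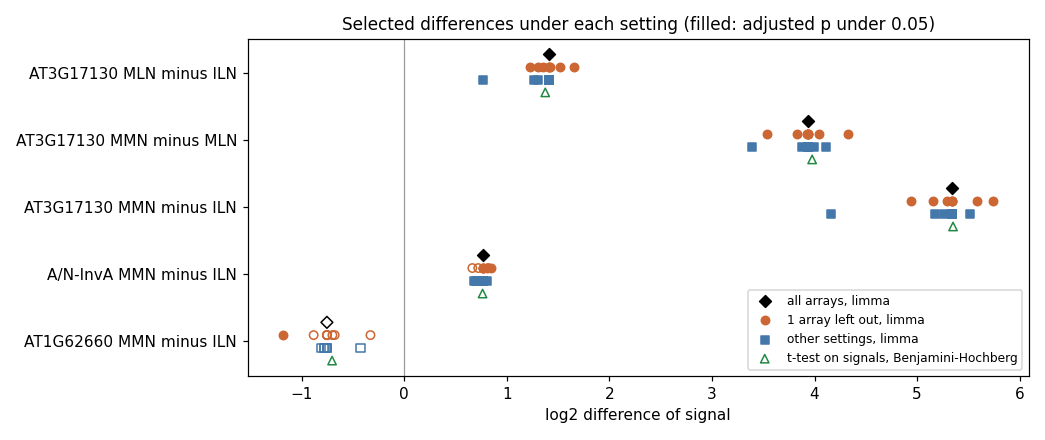
Log2 differences (x axis) of 5 results (y axis) with all arrays, with 1 array left out, under other limma settings and in the equal-variance test on linear signals with Benjamini-Hochberg adjustment; filled symbols passed an adjusted p under 0.05. AT3G17130 stays filled in every limma fit that keeps both MMN arrays. Leaving out an MLN array cannot move a difference between MMN and ILN. Of the fits that leave out an ILN array, *A/N-InvA* is open without the third and AT1G62660 in each.

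The order of the 5 genes by nectary type was therefore not shared. The ILN arrays were apart from and below both mature types for AT3G17130 and *A/N-InvA*, overlapped them for *cwINV4* and *cwINV6*, and were above MMN but not apart from MLN for AT1G62660. Groups did not overlap for 2 of the 5 genes between MLN and ILN (41.0% of all probe sets), 2 for MMN against MLN (25.1%) and 3 for MMN against ILN (50.8%). The median log2 difference of MLN against ILN was 0.39 for the 5 genes and 0.17 over all probe sets. For MMN against MLN the medians were -0.08 and -0.03, and for MMN against ILN 0.31 and 0.11.

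Some other measures of the pools differed between these groups. Of the 6 green tissue markers listed, 2 could be assigned a probe set (*PSBO1* and *RCA*). Their summed signal was 7386 to 11572 in MLN, 4780 to 8286 in ILN and 9693 to 9872 in MMN. MLN overlapped ILN, while both MMN arrays were above every ILN array. *RCA*, Rubisco activase, was called higher in MLN and in MMN when each was set against ILN. *PSBO1* was called in no comparison (log2 difference 0.11 for MLN against ILN, -0.06 for MMN against MLN and 0.05 for MMN against ILN). *JMT*, the jasmonic acid carboxyl methyltransferase, was higher in MLN than in ILN by 2.04 on the log2 scale (limma adjusted p = 0.00104) and lower in MMN than in MLN, with a log2 difference of -2.31 (limma adjusted p = 0.0127). The ratio of 3′ to 5′ signal of a ubiquitin control, which rises as RNA is shortened, was 2.65 to 3.60 in ILN, 2.08 to 2.39 in MLN and 2.21 to 2.30 in MMN. In a second ubiquitin control MLN (1.29 to 1.83) and ILN (1.68 to 2.82) overlapped, with 1.60 to 1.67 in MMN. The types also overlapped in both GAPDH controls (1.76 to 6.93 and 1.58 to 3.24 over all arrays) and in actin (7.98 to 31.1). Some of the GAPDH and ubiquitin ratios were above the limit that the study reports for all its nectary arrays. The study checked its arrays before normalizing them, and the ratios here come from normalized signals, so they need not be comparable. The part of these values in the differences of AT3G17130 and *A/N-InvA* was not tested. *INO*, a marker of the ovule's outer integument and the only 1 of 3 carpel and ovule markers measured, gave 47.7 to 108 over all arrays and was not called in any comparison.

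Few relatives of the 5 genes could be assigned a probe set here, where 7922 of the 22746 probe sets had no assigned locus. The study describes nearly all invertase genes from these arrays, so a missing assignment need not mean a missing probe set. The loci of *cwINV4* and *A/N-InvA*, and of *SUS1*, *SUS6* and *HXK2* below, came only from the study's tables and not from the platform annotation. Which genes of these families could be measured thus depended in part on which genes those tables named. The lists name 6 cell wall invertases, 2 vacuolar and 9 alkaline/neutral invertases, of which 2, 1 and 1 could be assigned a probe set, and these 4 are the invertases described above. Of 14 listed loci of the inhibitor family 7 could be assigned a probe set, AT3G17130 among them. When MLN was set against ILN 1 of the 7 was called higher and 1 lower (23.6% of all probe sets were called). For MMN 1 was higher and none lower against MLN (0.730%), and 2 were higher and 1 lower against ILN (18.8%). The 1 higher against MLN was AT3G17130, which the study had picked for that difference. AT3G17130 was also 1 of the 2 higher against ILN, on the same MMN arrays. The median log2 differences of the 7 were 0.44, -0.01 and 0.37.

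AT4G15750, which the study's tables annotate to the same inhibitor family as AT3G17130, gave 68.9, 65.4 and 102 in MLN, 64.0, 63.9 and 50.3 in ILN, and 85.1 and 68.8 in MMN. Its MMN arrays lay within the MLN range, and the lateral types did not overlap. The log2 difference was 0.39 for MLN against ILN (SE 0.23, limma adjusted p = 0.230), -0.01 for MMN against MLN (SE 0.25, 0.998) and 0.37 for MMN against ILN (SE 0.25, 0.346), and none was called.

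AT5G20740, listed with the inhibitor family by its locus alone, was called lower in both mature types than in ILN. It gave 68.1, 169 and 503 in ILN, 43.6, 37.9 and 52.1 in MLN, and 38.9 and 38.9 in MMN. Every ILN array was above all mature arrays, and the ILN arrays themselves differed widely. The log2 difference was -2.02 for MLN against ILN (SE 0.53, limma adjusted p = 0.0177) and -2.21 for MMN against ILN (SE 0.59, 0.0232). The first call was lost without the first MLN array (-2.02, limma adjusted p = 0.0543) or the second (-1.91, 0.0640), and the second call without the second ILN array (-2.25, 0.0520), the first MMN array (-2.21, 0.117) or the second (-2.20, 0.127). The second call was also lost with 50 added to every signal (-1.45, limma adjusted p = 0.0545) and in a fit of only the groups compared (0.0578). Without the third ILN array both were smaller, at -1.28 and -1.46, and still called.

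AT1G62770, also listed by locus alone, gave 38.9, 40.9 and 38.4 in ILN, 52.8, 64.0 and 67.3 in MLN, and 65.2 and 108 in MMN. All mature arrays were above all ILN arrays, and the second MMN array was highest. It was called in MMN against ILN (log2 difference 1.09, SE 0.24, limma adjusted p = 0.00911), though not without the second MMN array (0.73, 0.139). With the replicate number as a block it was also called in MLN against ILN (0.63, limma adjusted p = 0.0331, against 0.0553 without the block). It was called there too without the variance trend (limma adjusted p = 0.0479) and in a fit of only the groups compared (0.0383).

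Sucrose synthases cleave sucrose reversibly into fructose and UDP-glucose, and 2 of the 6 listed could be assigned a probe set. *SUS1* gave 6381, 5438 and 4585 in ILN, 11955, 10891 and 17092 in MLN, and 10730 and 13941 in MMN. Its mature arrays were all above its ILN arrays, and both mature types overlapped. It was higher in MLN than in ILN by 1.27 on the log2 scale (SE 0.22, limma adjusted p = 0.00175) and in MMN than in ILN by 1.17 (SE 0.25, 0.00652), a call lost without the second MMN array (0.99, 0.0962). *SUS6* fell by 1.06 from ILN to MLN (SE 0.25, limma adjusted p = 0.0101), from signals of 366, 241 and 301 to 148, 152 and 131, which do not overlap.

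Hexoses freed by invertases are phosphorylated by hexokinases and fructokinases. *HXK2*, the only 1 of 4 listed hexokinases with an assigned probe set, gave 796 to 998 in ILN, 865 to 1329 in MLN and 1334 to 1487 in MMN. Its difference of 0.66 between MMN and ILN was not called (limma adjusted p = 0.0657). This result lay close to the threshold, and it was called with array weights (0.0431), in a fit of only the groups compared (0.0410), with either filter to the brightest probe sets (0.0474 and 0.0461, limma adjusted p) and without the second MLN array (0.0302). Of 7 loci listed as fructokinases 6 could be assigned a probe set. In the limma fit used above only MMN against ILN held calls, 1 higher and 1 lower (18.8% of all probe sets). AT2G31390 was higher by 0.98 (SE 0.24, limma adjusted p = 0.0142, but 0.166 without the second MMN array). AT1G66430 was lower, with 1934, 1516 and 1709 in ILN against 724 and 407 in MMN (log2 difference -1.66, SE 0.27, limma adjusted p = 0.00150). With the replicate number as a block both were also called in MLN against ILN, AT2G31390 at 0.62 (limma adjusted p = 0.0395) and AT1G66430 at -0.67 (0.0446). Both were called there too after a new quantile normalization (limma adjusted p = 0.0315 and 0.0335). The same held with either filter to the brightest probe sets (0.0394 and 0.0364 for AT2G31390, 0.0478 and 0.0471 for AT1G66430). AT2G31390 was also called without the first MLN array (0.0352), and AT1G66430 without the third (0.0402). In the equal-variance test on linear signals none of the called differences of *SUS1*, *SUS6*, AT5G20740, AT1G62770, AT2G31390 and AT1G66430 passed after Benjamini-Hochberg adjustment over all probe sets (adjusted p from 0.0984 to 0.509), and those of AT5G20740 and AT1G62770 did not pass before it.

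The genes whose log2 signal followed AT3G17130 most closely over the 8 arrays were AT2G19970, annotated as a putative pathogenesis-related protein (r = 0.981), *GAD* (AT5G17330), a glutamate decarboxylase (r = 0.980), and AT1G74820, of the cupin family (r = 0.977). They were taken from 2225 probe sets of single loci whose type means spanned at least 1 on the log2 scale. *GAD* gave 25.1, 29.8 and 27.2 in ILN, 62.0, 54.6 and 38.5 in MLN, and 465 and 314 in MMN. AT1G74820 gave 97.8, 46.6 and 73.4 in ILN, 220, 156 and 173 in MLN, and 11902 and 12038.5 in MMN, and AT2G19970 had its highest 2 values, 423 and 301, in MMN. All 3 were low in ILN, higher in MLN and far higher in MMN, as AT3G17130 was, and both *GAD* and AT2G19970 shared its higher first MMN array. They were picked for their likeness to AT3G17130, so the shared order follows from the choice. The study had also listed all 3 from these arrays for their difference between MMN and MLN.

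For *A/N-InvA* the closest of 2226 were AT5G60610 (r = 0.981), AT1G22060 (r = 0.978) and AT3G06600 (r = 0.977), of which the first 2 carry no description here and the third is annotated only as an expressed protein. AT5G60610 gave 53.7, 42.9 and 27.4 in ILN, 78.2, 82.7 and 72.9 in MLN, and 194 and 163 in MMN, a steeper series than that of *A/N-InvA*. In each of these 3 genes, as in *A/N-InvA*, the third ILN array was the lowest of all and the MMN arrays the highest. These correlations are descriptions over 8 arrays that share the same 3 group means and the same normalization. The genes were picked by them, so the likeness is not a separate result.

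**Figure D4:**
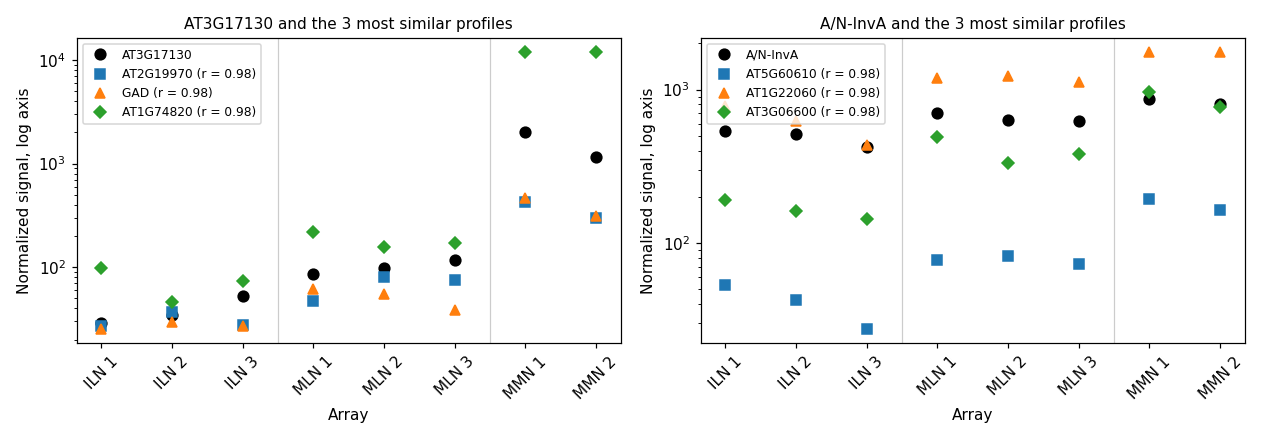
Normalized signal (log axis) on each of the 8 arrays (x axis) for AT3G17130 (left) and *A/N-InvA* (right), in black, with the 3 genes of most similar log2 signal, in colour. All 8 genes have their highest values on the MMN arrays, and r is 0.977 to 0.981 over 8 arrays. The 3 genes in colour in each panel were picked for this likeness.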

How the data were processed

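The authors hybridized 8 nectary pools to ATH1 arrays, quantile-normalized the arrays together with public reference arrays, summarized probe sets by RMA in Genedata Expressionist Refiner and scaled each array in Analyst. No software version is given in the sources used here. The deposited values are linear signal intensities of 22810 probe sets with a median of 100 per array. Precision is limited by the number of arrays.

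After 64 control probe sets were left out, log2 signals of all 8 arrays were modelled in limma 3.58.1 (R 4.3.3), with 1 mean per nectary type, a variance trend and Benjamini-Hochberg adjustment over 22746 probe sets. The procedure was also run on simulated arrays with independent noise and known folds planted in MMN. These lack the likeness between arrays of equal replicate number given below, and no result here rests on them. Limma p-values set a difference of type means against the spread between pools of the same type. That spread was estimated over all types together and moderated towards a trend over probe sets. Probe sets were assigned to loci from the platform annotation and the locus columns of the study's tables, with 1 locus each. No locus was assigned to 7922 probe sets, several to 546, and the sources disagreed for 10. Symbols came from a reference gene table (TAIR10.1). Listed pathway loci were placed by locus, and 11 of those with a probe set have no annotation of that function in the sources used. Comparisons that share arrays are not independent.

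The genes and lists were chosen with earlier results of these data known. Genes named beside the 5 were, per list, up to 4 with the smallest adjusted p among those called, and the 3 genes most correlated with each called gene. AT4G15750, *HXK2*, *RCA* and *JMT* were added after their values had been seen. The study's tables also hold the authors' ratios and p-values, which were not used. For MLN and ILN arrays of equal replicate number, the deviations from their group means correlated at 0.338, 0.241 and 0.211 over probe sets, so these arrays may be paired, and a fit with a replicate block was run. Other alternatives were the equal-variance two-sided t-test that the study names for these comparisons, run here on linear signals, filters to the 12468 brightest probe sets, a new quantile normalization, median centring, 50 added to each signal, no variance trend, array weights, only the groups compared, and each array left out. Figures were drawn in Python 3.11.15 with matplotlib 3.10.9.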

Additional observations from a re-analysis of the deposited data

How the results depend on the processing

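Of 273 alternative values for the 5 genes in the 3 comparisons, 258 kept their direction and their side of the threshold. These include fits that leave out an array of the type not compared, in which the difference cannot change. The 5 that changed direction all belonged to *cwINV4*, whose difference was never called: MLN against ILN was -0.21 after a new quantile normalization and ranged from -0.035 to 0.12 with 1 array left out, and MMN against ILN ranged from -0.15 to 0.015. With 1 array left out, *A/N-InvA* in MMN against ILN ranged from 0.66 to 0.84 and AT1G62660 from -1.18 to -0.33. The equal-variance t-test without adjustment called *A/N-InvA* also in MLN against ILN (log2 ratio of means 0.41) and MMN against MLN (0.36). With Benjamini-Hochberg adjustment it called none of the 5 genes, at 1.37, 3.98 and 5.35 for AT3G17130 (MLN against ILN, then MMN against each of MLN and ILN) (adjusted p = 0.0723, 0.606 and 0.127) and 0.76 for *A/N-InvA* in MMN against ILN (0.0928). The cause was not tested. The study set the false discovery rate of Storey and Tibshirani beside its t-test, so these adjusted values are not those of the study. The replicate block changed no call of the 5 genes and added the 3 calls of relatives named above, and with it 275 probe sets were called between MMN and MLN in place of 166. That count was 1663 by the unadjusted t-test, 1 by the adjusted one, 575 with array weights and 41 to 308 with 1 array left out. The adjusted t-test called 773 probe sets between MLN and ILN in place of 5357 (3566 to 6786 with 1 array left out), and 346 between MMN and ILN in place of 4284 (1762 to 4991). The new quantile normalization moved the median difference of all probe sets from 0.17 to 0.05 in MLN against ILN and from 0.11 to 0.01 in MMN against ILN. Among relatives, the uncalled MMN against MLN difference of AT4G15750 became 0.024 after that normalization, 0.039 with array weights and 0.031 with the replicate block, and ranged from -0.17 to 0.19 with 1 array left out. That of *SUS1* ranged from -0.28 to 0.10, and that of AT5G20740 was 0.25 with the block. The 2 MMN arrays limit the precision of both comparisons that use them. Background weighs more in low signals, here those of *cwINV6*, most of AT1G62660 and AT3G17130 in ILN.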

Other observations

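Genes beside the 5 on the chromosome were looked at in the order of loci, up to 3 positions away, and 15 of them could be assigned a probe set. Beside AT3G17130, the genes AT3G17110, AT3G17120 and AT3G17140 had signals of 80.0 to 99.1, 36.7 to 84.2 and 23.5 to 55.5 over the 8 arrays. None of these 3 neighbours was called higher in MMN, with log2 differences against MLN of -0.24, 0.34 and -0.34 (limma adjusted p = 0.886, 0.845 and 0.857). Of all 15 neighbours limma called 0 between MMN and MLN (0.730% of all probe sets), with 1 at an unadjusted p under 0.05, and the equal-variance t-test gave 2 unadjusted and 0 after adjustment. Limma called 4 of the 15 between MLN and ILN (23.6% of all probe sets) and 2 between MMN and ILN (18.8%).

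The gene 2 positions from *A/N-InvA*, *SVB* (AT1G56580), gave 1865, 3922 and 4853 in ILN, 6593, 6871 and 4839 in MLN, and 13211.5 and 12401 in MMN. Both MMN arrays were above all others, while the third ILN and the third MLN array were almost equal. It was higher in MMN than in ILN by 1.96 on the log2 scale (limma adjusted p = 0.00244). Beside *cwINV4*, AT2G36160 was lower in both mature types, with 1296, 2100 and 3484 in ILN against 426 to 527 in MLN and 436 and 514 in MMN (log2 difference -2.15 for MLN against ILN, limma adjusted p = 4.25e-04). These neighbours were named after their values had been seen.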
